A study of Mus musculus with 504 samples.

Results

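Epcam, the serine proteases St14 (matriptase), Prss8 (prostasin) and Prss22, and the membrane-bound protease inhibitors Spint1 (HAI-1) and Spint2 (HAI-2) were followed in cells sorted from mouse mammary tumours. These 6 genes were taken by symbol from a table of 55450 genes, in the 335 libraries that the labels mark as having passed quality control. Their source was a pair of MMTV-PyMT mouse lines, where a mammary promoter drives polyoma middle T and mice develop breast tumours. Both lines also carried MMTV-Flpo, a mammary Flp recombinase that turns the RC::FrePe reporter to mCherry in tumour cells, and a tamoxifen-activated Cre that turns it for good to GFP. Tnc (tenascin C), the study's mark of partial epithelial-to-mesenchymal transition (EMT), drives this Cre in the Tnc-CreERT2 line, and Cdh2 (N-cadherin), its mark of full EMT, in the Cdh2-CreERT2 line. From an age of 9 weeks all animals were given tamoxifen (2 mg, 2 times weekly), and tumours were collected at 13 to 14 weeks, so that no animal went without tamoxifen.

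The populations were sorted on both colours and on surface EpCAM. In the Tnc-CreERT2 line (5 animals) they were P22 (GFP and mCherry, EpCAM high; 50 libraries), P09 (GFP high, EpCAM medium; 48), P16 (GFP, EpCAM medium; 26), P10 (GFP, EpCAM low; 25), P15 (GFP, EpCAM negative; 12), P05 (mCherry, EpCAM negative; 32), P17 (mCherry, EpCAM high; 11) and P18 (mCherry high, EpCAM high; 55). In the Cdh2-CreERT2 line (5 animals) they were P15 (16), P05 (10, all from 1 animal) and P18 (50), with the same gates. The gate of P09 is that on its library labels, while the series description lists it under the number P18. The library labels were followed, so that P09 and P18, the reference of most comparisons, are less certain than the others. A library is a pool of 5 cells copied by Smart-seq2, which reads full-length polyadenylated RNA and has no molecular identifiers. The animal was the replicate: counts were summed per animal and population, and levels are CPM (a gene's count over the total of its sum, on a scale of 1e6) scaled by TMM factors, which correct for differences in composition between sums.

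EpCAM is a homophilic adhesion protein of epithelial cells and associates with claudin-7 at cell borders. Matriptase, a transmembrane serine protease, and prostasin, a protease held to the membrane by a lipid anchor, activate one another in epithelia, and the Kunitz-type inhibitors HAI-1 and HAI-2 restrain both. Matriptase is known to cleave EpCAM, and in intestinal epithelium the loss of HAI-2 leads to loss of EpCAM and claudin-7.

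On GRCm38, Epcam lies on chromosome 17 (87635979 to 87651129) and Prss22 on the same chromosome (23993534 to 23998100), Spint1 on chromosome 2 (119237362 to 119249527), St14 on chromosome 9 (31089402 to 31131853), and Spint2 (29256323 to 29281912) and Prss8 (127925716 to 127930104) on chromosome 7. All 6 are protein coding. Prss8 overlaps Kat8, and St14 the processed pseudogene Gm16071, on the opposite strand, and whether counting used strand is not given in the sources used here, so that reads of these pairs may be shared.

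The 250 bases before the transcription start are shown for the 3 members for which a RefSeq window (GRCm38.p6) was found in the sources used here. The starts are those of RefSeq, and for Spint1 and Spint2 they differ from the gene coordinates given above. Capitals mark matches, on either strand, to the palindrome ACCGGT, the ETS core CCGGAAG, the E-box CACCTG, the GC box GGGCGG and the TATA box TATAAA, with no overlap among them. ACCGGT was chosen after the windows had been seen.
Epcam, chr17:87635729-87635978, plus strand: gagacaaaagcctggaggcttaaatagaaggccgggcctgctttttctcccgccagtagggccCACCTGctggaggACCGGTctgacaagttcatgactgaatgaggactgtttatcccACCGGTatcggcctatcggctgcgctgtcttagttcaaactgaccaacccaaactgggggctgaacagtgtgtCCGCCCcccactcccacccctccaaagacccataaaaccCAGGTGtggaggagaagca
Spint1, chr2:119237110-119237359, plus strand: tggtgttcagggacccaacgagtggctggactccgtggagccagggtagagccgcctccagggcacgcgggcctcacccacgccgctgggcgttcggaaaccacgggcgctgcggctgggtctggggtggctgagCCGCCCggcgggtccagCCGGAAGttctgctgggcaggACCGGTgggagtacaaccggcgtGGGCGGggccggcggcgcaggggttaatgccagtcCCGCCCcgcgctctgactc
Spint2, chr7:29281978-29282227, minus strand: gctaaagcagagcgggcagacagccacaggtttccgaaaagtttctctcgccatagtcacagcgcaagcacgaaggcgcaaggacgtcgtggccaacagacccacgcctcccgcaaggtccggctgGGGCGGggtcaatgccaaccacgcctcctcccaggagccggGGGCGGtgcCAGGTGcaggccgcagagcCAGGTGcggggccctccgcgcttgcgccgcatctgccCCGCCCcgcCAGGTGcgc
The Epcam window holds ACCGGT at 2 places, the E-box at 2 and the GC box at 1. The Spint1 window holds ACCGGT and the ETS core at 1 place each and the GC box at 3, and the Spint2 window holds the E-box at 3 places and the GC box at 3. Among 32851 windows of this length, 1.86% hold ACCGGT, 6.91% the ETS core, 17.2% the E-box, 32.7% the GC box and 12.4% TATAAA, which none of the 3 windows has. The palindrome of Grainyhead-like factors, AACCNGTT, was found in none of the 3 and in 1.79% of all windows. A match describes these letters only.

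Facts of the libraries touch several results. Totals of the libraries that passed ran from 313655 to 27849014 counts. All 12 Tnc-CreERT2 P15 pools held the leukocyte gene Ptprc at 10 CPM or more, and their 3 animals summed to 3085 to 9013 CPM over 10 leukocyte markers, against 7.80 to 39.2 CPM in P18, where Ptprc and Cd3e were at 0. Krt8, a keratin that defines luminal tumour cells, left 1 read in those 12 pools. In the Cdh2-CreERT2 line the P15 sums held 6.26 to 24.9 CPM of leukocyte markers, with Ptprc, Laptm5, Tyrobp, Cd52 and Cd3e at 0, against 11.3 to 245 CPM in P18. P05 of the Tnc-CreERT2 line ranged from 27.3 to 10206 CPM of leukocyte and from 11.2 to 17845 CPM of fibroblast markers. 3 sums stand apart by size: P15 of animal TENA2524 (1 library, 508631 counts), P16 of TENA2483 (1 library, 4419553 counts) and Cdh2-CreERT2 P18 of Cdh1624 (2 libraries, 879259 counts, with the highest TMM factor, 2.53). TENA2524 and all Cdh2-CreERT2 animals were sequenced on lane 2 and the other Tnc-CreERT2 animals on lane 1, so that line and lane can hardly be told apart. The part of these differences in the results below was not tested, except where values without a library are given. In pools, fewer cells that express a gene and less RNA per cell cannot be told apart.

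In mCherry-high, EpCAM-high P18 cells all 6 genes were present in most pools. In the Tnc-CreERT2 line 40 of 55 P18 pools had all 6 at 10 CPM or more, and the other 15 had 4 or 5. Levels per kilobase divide by the merged length of all annotated exons of a gene, which may exceed that of the transcript expressed. This length was 7637 bases for St14 and 2767 for Spint1. On this scale Epcam led with 2083 ± 476 CPM per kb (SD, n = 5 animals), followed by Spint2 (177 ± 25.1), Prss8 (48.9 ± 13.7), Prss22 (47.4 ± 31.5), Spint1 (19.1 ± 7.55) and St14 (9.49 ± 1.59). Prss8, Prss22 and Spint1 did not differ from their neighbours among these 3 beyond the larger SD, while the other steps in that order were larger than the SDs of both neighbours. Without the division by length, St14 had a higher mean (72.5 ± 12.2 CPM) than Spint1 (52.7 ± 20.9 CPM), so their order depends on it. Over single pools Spint2 was the most even (coefficient of variation 0.265, from 392 to 1652 CPM), and Prss22 the most uneven (1.72, from 0 to 745 CPM, at 10 CPM or more in 41 of 55 pools). Across these 55 pools the ranks of 15 pairs of members correlated weakly (Spearman's rho -0.03 to 0.48, median 0.20, with Epcam and Prss8 the highest), a description over pools that share animals and libraries.

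**Figure D1:**
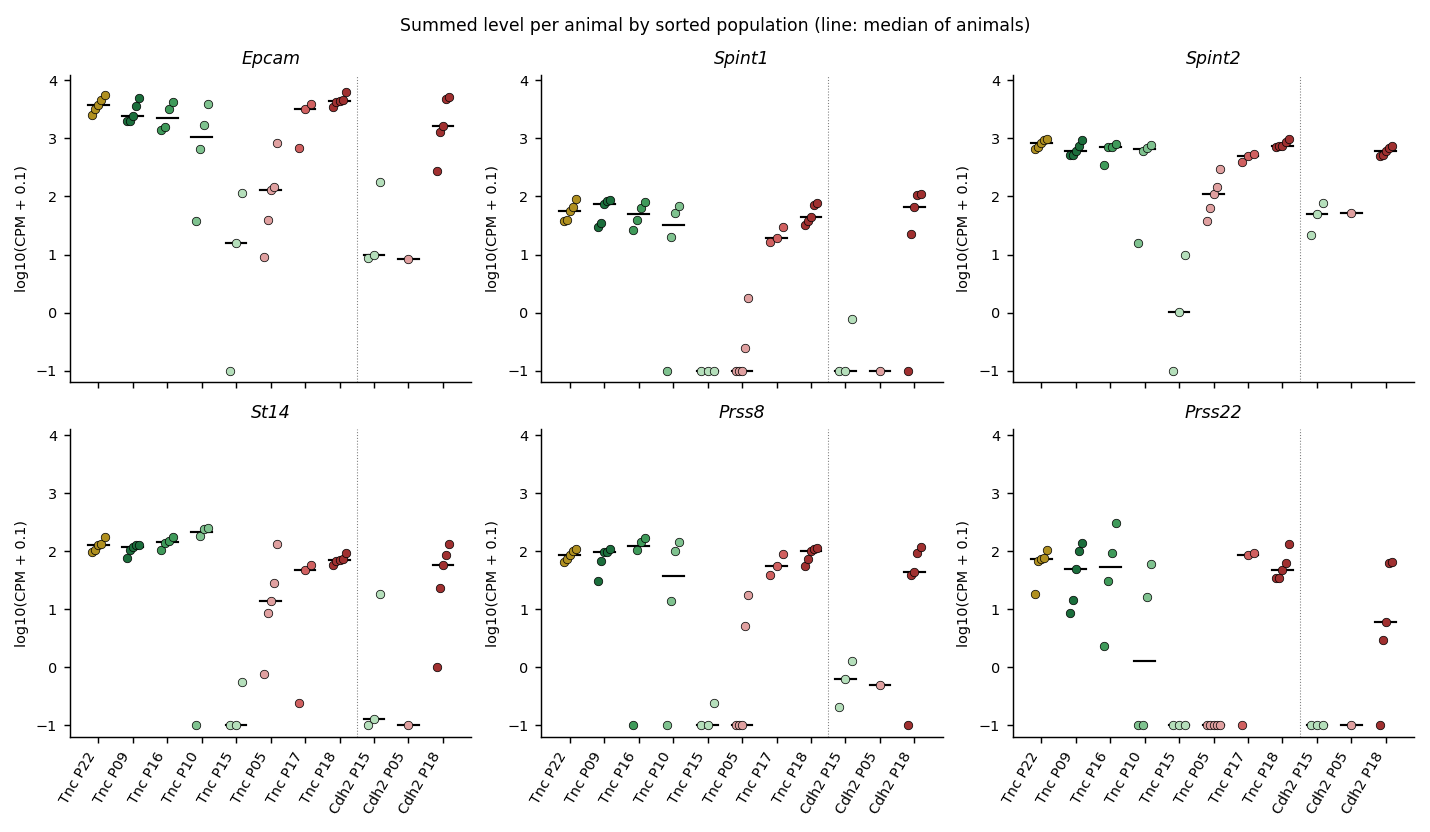
Level of each gene, as log10(CPM + 0.1), in every animal (points) of the 8 Tnc-CreERT2 and 3 Cdh2-CreERT2 populations, with the median as a line; points at -1 are sums with 0 reads. Spint1 and Prss22 lie at or near the floor in P15 and P05 of both lines, while Spint2 in P05 stays between 38.3 and 296 CPM.

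In the populations with medium or high surface EpCAM (P22, P09, P16 and P17), none of the 6 genes passed the test against P18. EdgeR's quasi-likelihood test, with the animal as a block and Benjamini-Hochberg adjustment over 33768 genes, called 0 members in P22, P09 and P17 (0% of all genes called) and 0 in P16 (0.00296%). At an unadjusted p under 0.05 the count of members was also 0 in each of the 4 comparisons. Of all genes, 2.12% were under it in P22, 2.52% in P09, 6.11% in P16 and 5.02% in P17. DESeq2, which called 2.41% to 5.32% of all genes in these comparisons, called none of the 6 in any of them. The median log2 fold change of the members was 0.03 in P22 and that over all genes -0.01.

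Epcam was 2523, 3211, 3697, 4620.1 and 5652 CPM in P22 animals, against 3421, 4235, 4395, 4531 and 6275 CPM in P18 animals. In P16 it was 1392, 1576, 3207 and 4189 CPM, lower than P18 of the same animal in 4 of 4. The fitted log2 fold changes were -0.31 ± 0.98 (SE) in P22, -0.74 ± 0.99 in P09, -1.03 ± 1.09 in P16 and -1.03 ± 1.22 in P17.

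St14, the gene of matriptase, had the most regular difference among the EpCAM-positive populations, although it did not pass the test across all genes. Its level was 97.7, 105, 126, 134 and 179 CPM in P22, against 58.8, 67.5, 69.9, 74.6 and 91.7 CPM in P18. Every P22 animal lay above every P18 animal, which 0.4% of all genes also showed. P16 likewise lay above P18 without overlap at 105, 137, 150.3 and 179 CPM (0.746% of genes), and P09 at 77.8 to 128 CPM overlapped it but was higher in 5 of 5 animals. EdgeR gave log2 fold changes of 0.78 ± 1.22 for P22, 0.55 ± 1.22 for P09 and 0.89 ± 1.31 for P16 (adjusted p = 1 in each). An exact sign-flip test of the differences within animals, two-sided and added after the values had been seen, gave p = 0.0625 for P22 and P09 and 0.125 for P16, the smallest p that 5 and 4 animals allow. Adjusted over the 18 pairs of a gene with P22, P09 or P16, a family that leaves out P17, these became 0.375. P22, P09 and P16 share their P18 sums, so their differences are not independent. P17, the other mCherry population with high EpCAM, had 0.143, 47.3 and 59.0 CPM of St14, lower than P18 in 3 of 3 animals.

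**Figure D2:**
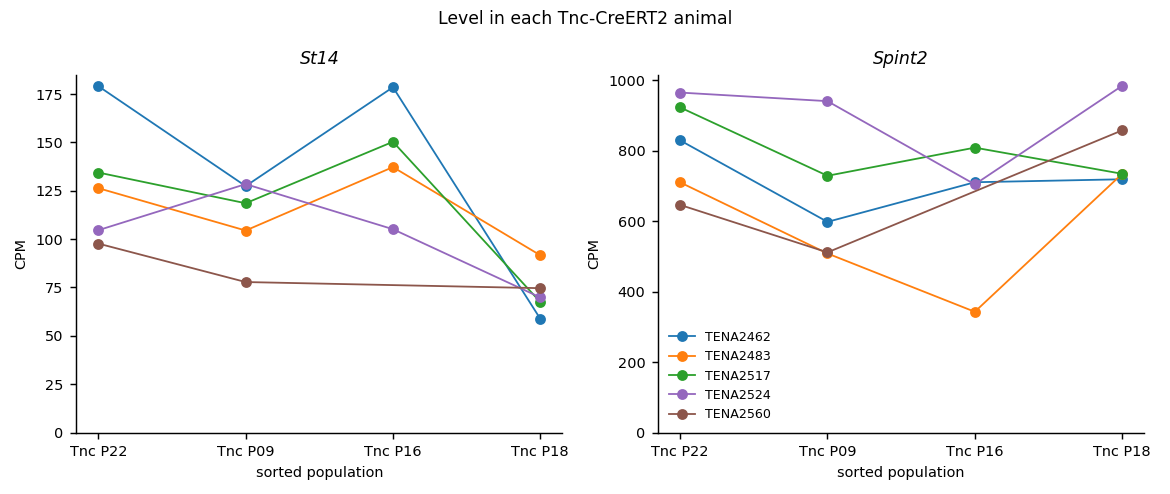
CPM of St14 (left) and Spint2 (right) in P22, P09, P16 and P18 sums of the Tnc-CreERT2 line, with 1 line per animal; TENA2560 has no P16 sum. All St14 lines end lower in P18 than in any of the other 3 populations, and all Spint2 lines are higher in P18 than in P09.

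Of the inhibitors, Spint2 was lower in P09 than in P18 in 5 of 5 animals, at 508, 511, 598, 729 and 940.4 CPM in P09 against 719, 734, 734, 857 and 984 CPM in P18. The 2 ranges overlapped, and the fitted log2 fold change was -0.30 ± 0.65 (edgeR adjusted p = 1). Spint1 was on either side of P18 in these populations, with 37.3 to 92.1 CPM in P22, 30.2 to 87.0 in P09 and 26.5 to 80.6 in P16, against 31.6 to 78.0 in P18. In P17 both inhibitors lay below P18 without overlap, Spint1 at 16.1, 19.1 and 29.9 CPM and Spint2 at 385, 506 and 528 CPM (7.31% of genes did so), with log2 fold changes of -0.84 ± 1.36 and -0.72 ± 0.78. The ratio of Spint1 to St14, per kilobase of merged exons, was 1.02 to 1.42 in P22, 0.736 to 2.30 in P09, 0.487 to 1.69 in P16 and 1.29 to 3.66 in P18, so that the ranges of all 4 overlapped. The size of this ratio depends on the exon lengths used, while its comparison between populations does not. Within animals the ratio was lower than in P18 in 5 of 5 animals in P22, 3 of 5 in P09 and 3 of 4 in P16. The exact sign-flip test, two-sided and added after the values had been seen, gave p = 0.0625 for P22, the smallest that 5 animals allow, and 0.25 for P09 and P16 (0.188, 0.25 and 0.25 adjusted over the 3 populations).

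The proteases Prss8 and Prss22 had no common direction. Prss8 was 65.2 to 110.2 CPM in P22, 31.0 to 108 in P09 and 54.6 to 115 in P18. It was 106, 144 and 166 CPM in 3 P16 sums and 0 in the other, which is the single library of TENA2483. Prss22, known as a tryptase-like protease of epithelia, ran from 18.6 to 106 CPM in P22, 8.63 to 141 in P09, 2.21 to 305 in P16 and 34.9 to 135 in P18, and the 305 CPM of P16 come from the same single library.

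In EpCAM-low, GFP-positive P10 cells the members split by animal. Epcam was 38.0, 648, 1706 and 3915 CPM, and Spint2 15.6, 602, 691 and 780.0 CPM, in each case lowest in TENA2517. St14 was 0 CPM in that animal and 186, 240.4 and 253 CPM in the other 3, each of which lay above the highest P18 animal (91.7 CPM). Spint1 and Prss8 were also at 0 in TENA2517, and Prss22 in TENA2517 and TENA2483. No member passed against P18 (0.00296% of genes called in P10 against P18) or against P16 (0%). At an unadjusted p under 0.05 the count of members was 0 in both (8.23% of genes against P18 and 4.77% against P16), and DESeq2 called 0 members (6.54% and 6.17% of genes). With each library given equal weight (limma on mean log2(CPM + 1)), 5 members, all but St14, were called lower against P18, in a fit that called 7.54% of all genes, and the fold change of St14 turned negative (-1.63, adjusted p = 0.36). The log2 fold changes against P18 ran from -1.69 ± 1.14 for Epcam to 1.12 ± 1.33 for St14.

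Single P10 pools also divided, and not only by animal. 18 of 25 pools had Krt8 at 10 CPM or more, and in these the medians were 1234 CPM for Epcam, 538 for Spint2 and 161 for St14. In the other 7 pools, 4 of TENA2517 and 3 of TENA2483, St14, Prss8 and Prss22 had no reads, Epcam had a median of 5.24 CPM and reached 103, and Spint2 reached 106. This split by Krt8 was made on measured values and is a description. The 4 P10 sums held 10.3 to 5886 CPM of leukocyte markers. All 4 P10 pools with Ptprc at 10 CPM or more were among the 7 with Krt8 below 10 CPM. They held 25.5, 277 and 309 CPM of Ptprc in TENA2517 and 96.4 CPM in TENA2483. The part of leukocyte RNA in the low values of these pools and of the TENA2517 sum was not tested.

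In the EpCAM-negative populations of the Tnc-CreERT2 line the inhibitor Spint1 and the protease Prss22 were at or near 0 reads, and Epcam was lower than in P18 in every animal. Against P18, edgeR called 3 of 6 lower in GFP-positive P15 (Epcam, Spint1 and Spint2; 0.53% of all genes were called lower) and 2 of 6 lower in mCherry-positive P05 (Spint1 and Prss22; 0.192%). None was called higher (0.198% of genes in P15 and 0.352% in P05). The gate removed cells with surface EpCAM, so that Epcam is not independent of how these cells were chosen. Spint1 and Prss22 in P15, and Prss22 in P05, had 0 reads. They passed the filter on low counts through other populations and could not come out higher. The members' median log2 fold change was -9.29 in P15 and -4.92 in P05, beside -0.61 and -0.15 over all genes. The 2 comparisons share their P18 sums. With each animal left out in turn, Spint2 stayed called in P15 in all 5 fits, Epcam in 1 (without TENA2517) and Spint1 in 0, and in P05 the count was 0 without TENA2462, TENA2483, TENA2524 or TENA2560 and 2 (Epcam and Spint1) without TENA2517. The share of all genes called with an animal left out is not given, so a loss of calls particular to the members cannot be read from these counts. Without the animal as a block 6 members were called lower in P15 and 4 in P05, where that fit called 3% and 1.51% of all genes in either direction. DESeq2 called 6 and 5 members, with 14.6% and 14.5% of all genes. P05 without the libraries that held Ptprc at 10 CPM or more gave 4 (Epcam, Spint1, Spint2 and Prss22; 0.796% of genes).

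**Figure D3:**
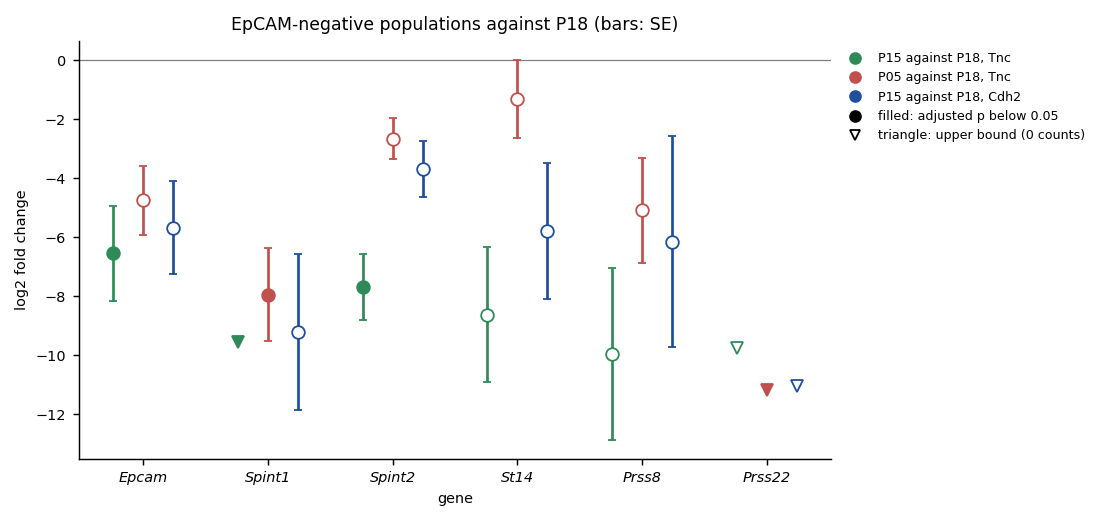
Log2 fold change of each gene (points, with SE as bars) in P15 and P05 against P18 of the Tnc-CreERT2 line and P15 against P18 of the Cdh2-CreERT2 line; triangles are bounds where the first population had 0 counts, and filled symbols have an edgeR adjusted p below 0.05. All points lie below 0, St14 in P05 being the nearest to it at -1.31.

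Epcam was 0, 15.9 and 116 CPM in P15 and 8.99, 39.5, 131, 144 and 821 CPM in P05, against 3421 to 6275 CPM in P18. Both populations lay below P18 in every animal without overlap, as 17.2% of all genes did in P15 and 5.82% in P05. The log2 fold change was -6.55 ± 1.61 in P15 (edgeR adjusted p = 0.0485) and -4.76 ± 1.18 in P05 (adjusted p = 0.056), the second missing the threshold. The 821 CPM of P05 in TENA2517 come mainly from library R5, at 2301 CPM, in which Krt8 stood at 679 and Spint2 at 432 CPM. In P15 the 116 CPM are the single library of TENA2524.

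The inhibitors differed from each other in these cells. Spint1 had 0 reads in all 3 P15 sums and 28 reads in 2 of 5 P05 sums (0.147 and 1.69 CPM), against 31.6 to 78.0 CPM in P18. With 3 counts over the P15 sums as a floor, its log2 fold change there was -9.54 or lower (edgeR adjusted p = 0.0214), and in P05 it was -7.95 ± 1.57 (adjusted p = 0.0277). Spint2 was 0, 0.912 and 9.88 CPM in P15, with a log2 fold change of -7.70 ± 1.12 against P18 (adjusted p = 0.000512). In P05 it was 38.3, 64.1, 110.1, 148 and 296 CPM, each below the lowest P18 animal (719 CPM), with a log2 fold change of -2.67 ± 0.69 (adjusted p = 0.0639). Between the 2 EpCAM-negative populations Spint2 was lower in P15 than in P05 in 3 of 3 animals (log2 fold change -5.03 ± 1.01, adjusted p = 0.0277), the only member called there (0.121% of genes called lower). It was also the only member called in P15 against P10 (-6.97 ± 1.09, adjusted p = 0.0017; 0.201% of genes called lower), and the ranges did not overlap (2.08% of genes lay lower in this way). The call against P10 was lost without TENA2524, and that against P05 without any animal other than TENA2483.

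The proteases ranged from 0 reads to levels that overlapped those of P18. Prss22 had 0 reads in all P15 and all P05 sums. Its log2 fold change against P18 was -11.18 or lower in P05 (edgeR adjusted p = 0.0325) and -9.76 or lower in P15, over 3 animals (adjusted p = 0.0932). Prss8 was 0, 0 and 0.139 CPM in P15 and 0, 0, 0, 5.00 and 17.4 CPM in P05, against 54.6 to 115 CPM in P18 (adjusted p = 0.0967 and 0.183). St14 was 0, 0 and 0.456 CPM in P15 (log2 fold change -8.63 ± 2.29, adjusted p = 0.067). In P05 it was 0.654, 8.67, 13.6, 28.8 and 133 CPM, the highest above every P18 animal, with a log2 fold change of -1.31 ± 1.32 (adjusted p = 0.713). St14 was lower in P15 than in P05 without overlap (2.03% of genes were), but did not pass (adjusted p = 0.195).

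**Figure D4:**
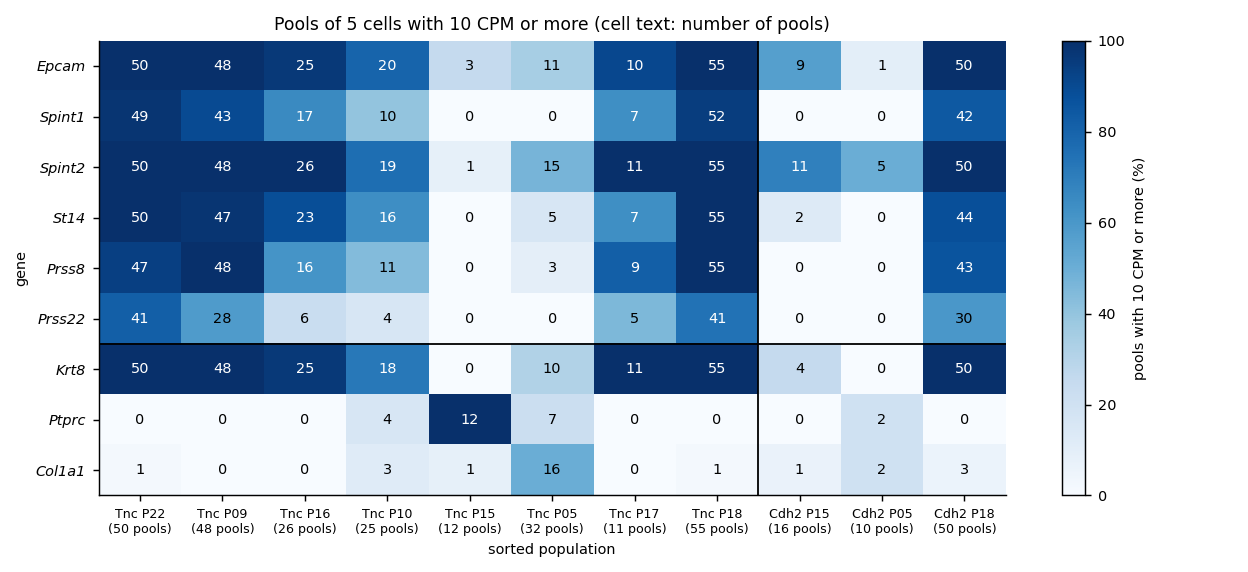
Number (text) and percent (colour) of 5-cell pools with 10 CPM or more of each member and of Krt8, Ptprc and Col1a1, by population. In Tnc-CreERT2 P05, Spint2 passes in 15 of 32 pools and Epcam in 11, while Spint1 and Prss22 pass in none.

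Among 32 single P05 pools, Spint2 was at 10 CPM or more in 15, Epcam in 11, St14 in 5 and Prss8 in 3. Of the 15 pools with Spint2, 7 had no Epcam read. All 5 pools with St14 at that level also had Spint2, and none had Spint1. Col1a1, a collagen gene of fibroblasts, was at 10 CPM or more in 16 of these pools and Ptprc in 7. In the 12 P15 pools Epcam reached 10 CPM in 3 and Spint2 in 1, a different pool, and the other 4 members in none. A count of 0 reads of Spint1 in P15 allows up to 0.0664 CPM over the 3 sums (3 counts, counting error only, as reads are not independent molecules).

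**Figure D5:**
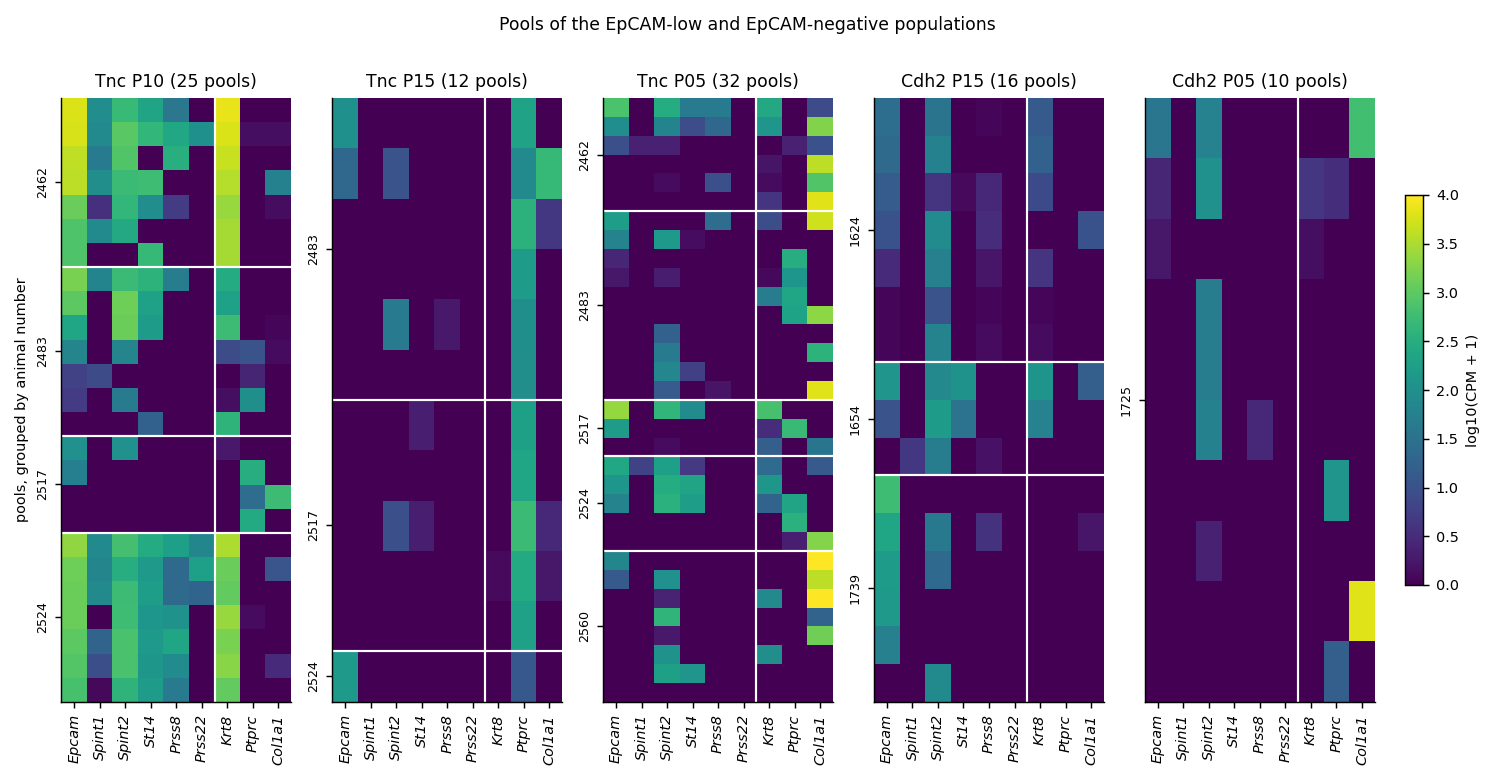
Colour gives log10(CPM + 1) of the 6 members and of Krt8, Ptprc and Col1a1 in every pool (rows, grouped by animal, highest Epcam on top) of the EpCAM-low and EpCAM-negative populations. All 12 Tnc-CreERT2 P15 pools have Ptprc and none has Krt8 above 0.265 CPM, while the 16 Cdh2-CreERT2 P15 pools have 0 reads of Ptprc.

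In the Cdh2-CreERT2 line, GFP-positive, EpCAM-negative P15 cells had less of the members than P18 in most animals, but no gene of the table passed there. EdgeR called 0 of 6 members and 0% of 33768 genes, 5 members had an unadjusted p under 0.05 (3.6% of genes did), and DESeq2 called all 6 lower (5.57% of genes called in either direction). Epcam was 8.78, 9.71 and 179 CPM in P15, against 269.6, 1313, 1663, 4761 and 5077 CPM in P18. The ranges did not overlap (1.28% of genes lay lower without overlap), and the log2 fold change was -5.68 ± 1.58 (edgeR adjusted p = 0.546). Spint2 was 21.3, 50.3 and 77.1 CPM in P15, against 504, 522, 597, 696 and 751 CPM in P18, again without overlap (-3.69 ± 0.95, adjusted p = 0.444). Spint1 left 6 reads in 1 of 3 P15 sums, and Prss22 none. St14 was 0, 0.0276 and 18.3 CPM in P15, against 0.90, 23.6, 58.4, 86.2 and 134 CPM in P18. The lowest P18 values of St14 and Epcam, and the zeros of Spint1, Prss8 and Prss22 there, are all from the small sum of Cdh1624.

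Spint2 and Epcam were the members found most often in single Cdh2-CreERT2 P15 pools. Of 16 pools, Spint2 was at 10 CPM or more in 11 and Epcam in 9, with 5 that had both, and St14 in 2. In animal Cdh1739 Epcam reached 573 CPM in a pool with 0 reads of Krt8 and of Spint2. In P05 of this line, which is 1 animal and allows no test, Spint2 was at 10 CPM or more in 5 of 10 pools and 52.8 CPM in the sum, Epcam in 1 pool and 8.39 CPM, and Spint1, St14 and Prss22 had 0 reads.

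The lines were also compared directly. Spint2 was lower in P15 than in P18 of both lines, by a smaller step in the Cdh2-CreERT2 line (log2 fold change -3.69) than in the Tnc-CreERT2 line (-7.70), a difference of 4.02 ± 1.26 (unadjusted p = 0.0033, edgeR adjusted p = 0.38), so the difference between lines did not pass. It passed without TENA2483 (log2 difference 6.42, adjusted p = 0.0467) and with DESeq2 (3.25, adjusted p = 0.0319; 9.7% of genes called). No member passed in that comparison with edgeR over all animals (0.00888% of genes called). At an unadjusted p under 0.05 there was 1 member, beside 6.94% of all genes. Between P15 cells of the lines, over 14028 genes, 2 members passed the filter on low counts and neither the test (0% called). Spint2 was 21.3 to 77.1 CPM in Cdh2-CreERT2 animals and 0 to 9.88 CPM in Tnc-CreERT2 animals, without overlap, as 10.4% of 33768 genes lay higher in this way (log2 fold change 3.72 ± 1.65, adjusted p = 0.488). Epcam was 8.78 to 179 CPM in Cdh2-CreERT2 and 0 to 116 CPM in Tnc-CreERT2 P15 cells. In P18 cells no member passed between the lines (0% of 17878 genes), with log2 fold changes from -1.29 ± 1.07 for Prss22 to 0.08 ± 0.91 for Spint1, whose sign changed in 5 of 17 alternatives.

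Genes around the axis were read from 5 lists of its partners, related proteases and inhibitors, substrates, and genes of epithelial identity. Of 8 partners and processing enzymes of EpCAM, 2 were called lower in P15 against P18 of the Tnc-CreERT2 line. These were Cldn7, the claudin bound by EpCAM (0 reads in P15 against 882 ± 203 CPM in P18, n = 3 and 5, a log2 fold change of -13.63 or lower, edgeR adjusted p = 0.0019), and the tetraspanin Cd9 (132 ± 120 against 1164 ± 146 CPM, adjusted p = 0.0325). In P05 against P18 Cldn7 was called lower as well (10.5 ± 8.33 against 882 ± 203 CPM, -6.36 ± 1.28, adjusted p = 0.0277). Adam17, a sheddase known to cut EpCAM, averaged 29.3 ± 32.4 CPM in P15, 53.0 ± 34.0 in P05 and 12.3 ± 2.38 in P18, and was not called.

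Of 10 other epithelial proteases and 7 other inhibitors tested, none was called in P15 or P05 against P18 of the Tnc-CreERT2 line. The proteases had median log2 fold changes of -3.95 and -2.22 in P15 and P05 and the inhibitors -2.21 and -0.80, beside -0.61 and -0.15 over all genes. Of 16 substrates and receptors 1 was called, Scnn1b, a subunit of the epithelial sodium channel that prostasin is known to activate (0 reads in P05 against 9.50 ± 6.58 CPM in P18, -8.59 or lower, adjusted p = 0.0463). Plau, the urokinase that matriptase can activate, averaged 55.3 ± 83.5 CPM in P15, 93.1 ± 75.6 in P05 and 3.51 ± 1.58 in P18, not called (adjusted p = 0.364 and 0.179). Of 8 genes of epithelial identity, Cdh1, Krt8, Ehf and Esrp1 were called lower in P15, and Krt8 in P05. Ehf, an epithelial ETS factor, averaged 0.207 ± 0.329 CPM in P15 and 158 ± 22.0 in P18 (-9.26 ± 1.25, adjusted p = 0.000248) but 64.1 ± 75.2 in P05 (adjusted p = 0.307). In P15 against P10 the list genes called were Cldn7, Krt8 and Ehf, all lower, and in P15 against P05 Ehf, also lower. In the Cdh2-CreERT2 line no gene of these lists was called.

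Across all 43 sums, the genes with the highest Pearson correlation of log2(CPM + 1) to each member were found among 33768. They were Plet1os, Plet1 and Krt8-ps for Epcam (r = 0.95, 0.95 and 0.93), Lad1, Mapk13 and 2610528J11Rik for Spint1 (0.97, 0.95 and 0.94), and Ehf, Cldn3 and Wfdc18 for Spint2 (0.95, 0.94 and 0.93). For Prss8 they were Cblc, Slc5a8 and Krt19 (0.96, 0.95 and 0.94), for Prss22 Rab27b, Gm28857 and AA986860 (0.91, 0.91 and 0.90), and for St14 Proser2, Gm15929 and Wbscr25 (0.87, 0.87 and 0.86). These sums share animals, and they include both EpCAM-positive and EpCAM-negative sorts. Among the members themselves r ran from 0.67 for Spint2 and Prss22 to 0.89 for Spint1 and Prss8.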

How the data were processed

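Raw read counts per gene were deposited for 504 wells (487 with cells, 17 empty), whole numbers throughout; 0 columns matched no sample. The submitters' processing notes name mm10, STAR, SAMtools, featureCounts and Subread; no version or setting of these is given in the sources. All 55450 identifiers matched symbols of GENCODE M21 (GRCm38), and each member has 1 identifier. The 335 libraries that passed were used (152 failed), summed per animal and population into 43 sums; 0 libraries were duplicates.

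A single edgeR 4.0.16 model (R 4.3.3) covered the 33768 genes kept by filterByExpr and gave the comparisons within lines, with TMM factors, a robust quasi-likelihood F test and the animal as a block, since sums of 1 mouse share it. All 6 members passed that filter, Spint1 and Prss22 without any read in Tnc-CreERT2 P15. Lines were compared 1 population at a time with no block (P18, 17878 genes; P15, 14028 genes). Called means a Benjamini-Hochberg adjusted p below 0.05 over all genes tested. SE is the absolute log2 fold change divided by the square root of F. In the comparisons within lines, p-values measure the spread left after the animal block. That spread is estimated over all sums of both lines, not only over those compared. Between lines, p-values measure the spread between animals. Where a population had 0 counts, the fold is a bound at 3 counts over that population. CPM of sums use the TMM factors (0.57 to 2.53), those of pools do not. The fitting steps were checked on simulated counts. Alternatives used DESeq2 1.42.0 and limma 3.58.1.

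The members and gene lists were chosen with earlier results of these data known. The text names the 6 members, the genes of each list called in the comparison described (up to 4 with the smallest p), and for each member the 3 genes with the highest correlation. Adam17 and Plau, which were not called, and Ehf in P05 were named after their values had been seen. The result of 1 listed gene is not reported here.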

Additional observations from a re-analysis of the deposited data

Results flagged for a closer look

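Single animals stood far from the other 4 in 5 of 41 combinations of a gene and a population with 4 or 5 animals; the rule used marks about 1 in 20 by chance. In Tnc-CreERT2 P05, Epcam was 821 CPM in TENA2517 (the others 8.99 to 144), St14 133 CPM and Spint1 1.69 CPM in TENA2524 (the others up to 28.8 and 0.147), and Prss8 17.4 CPM in TENA2462 (the others up to 5.00). In P18, Prss22 was 135 CPM in TENA2517 (the others 34.9 to 62.4).

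Libraries that the labels mark as failing, which entered no comparison, also held reads of the members. At 10 CPM or more with at least 3 counts, Epcam was found in 57 of 152, Spint2 in 45, St14 in 22, Spint1 in 20, Prss8 in 19 and Prss22 in 6. Of 17 empty wells 1, with 256675 counts, held Epcam at 990 CPM and Spint2 at 1387 CPM by the same rule; the median empty well had 19 counts. None of the 11 failing Tnc-CreERT2 P15 libraries and none of the 9 failing Cdh2-CreERT2 P15 libraries held a member at that level. Their totals were only 9914 to 349647 counts (median 103162) and 7358 to 44080 counts. At such totals 3 counts stand for more than 10 CPM in most of these libraries, so their lack of members says little.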

How the results depend on the processing

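Percentages are the share of all genes tested that the same fit called in either direction. For the members called lower in P15 against P18 of the Tnc-CreERT2 line (3, 0.729%), the count was 6 with DESeq2 (14.6%), with libraries labelled as failing included (1.99%) and with each library given equal weight (13.9%), and 2 to 4 with other scaling factors, without the filter on low counts, with only these populations fitted, or with at least 3 libraries per sum (0.556% to 0.946%). For P05 against P18 (2, 0.545%) it was 5 with DESeq2 (14.5%), 6 with equal weight (18.2%), 4 with at least 3 libraries per sum (1.9%) and without libraries holding Ptprc (0.796%), and 0 with these populations fitted alone (0.0119%). P15 against P10 (1, 0.222%) gave 6 with DESeq2 (13.2%) and 4 with failing libraries (0.378%), and fitted alone it called Epcam and not Spint2 (0.151%). P15 against P05 (1, 0.136%) gave 3 with DESeq2 (13%) and 0 when fitted alone (0%), with at least 3 libraries per sum (0.285%) or with equal weight (0.355%). P10 against P18 (0) gave 5 with equal weight (7.54%). P15 against P18 of the Cdh2-CreERT2 line (0) gave 6 with DESeq2 (5.57%), 4 with failing libraries (0.261%), 3 with equal weight (4.2%) and 1 without libraries holding Ptprc (0.0121%). The difference between lines (0) gave 1, Spint2, with DESeq2 (9.7%).

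Without the replicate block of the animal, the count was 6 in P15 against P18 (3%), 4 in P05 against P18 (1.51%) and 2 in P15 against P10 (0.723%), and it changed no other count of members; the animals pair the sums because those sums come from the same mouse. Leaving out each animal gave 1 to 2 members in P15 against P18, 0 to 2 in P05 against P18, 0 to 1 in P15 against P10, in P15 against P05 and for the difference between lines, and 0 elsewhere. The cause of these changes was not tested. For the fits with an animal left out, the share of all genes called is not given.

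The fold changes of 33 pairs of a member and a comparison were recomputed, and 31 kept their sign in each alternative run. St14 in P10 against P18 turned to -1.63 with equal weight. Spint1 in P18 between the lines turned to -1.32 with equal weight, -0.06 without TENA2517, -0.02 without TENA2524, -0.21 without Cdh1725 and -0.28 without Cdh1739, and leaving out each animal gave -0.28 to 0.41. Genes that are no members were not recomputed. All 13 alternatives kept Spint2 called lower in P15 against P18 of the Tnc-CreERT2 line (log2 fold change -10.13 to -7.08). The 14 alternatives for St14 in P22 against P18 gave 0.58 to 0.93 with no call. Leaving out libraries with Ptprc gave no value for comparisons with Tnc-CreERT2 P15, as it removes all 12. In P22, P09, P16 and P17 against P18, P10 against P16, and both populations between lines, 0 members were called in each alternative run. Sums of 1 or 2 libraries limit what single animals can show.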
